A study of Homo sapiens with 6 samples.

Results

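The insulin-like growth factor (IGF) axis genes examined here are the ligand IGF2, the receptors IGF1R, INSR and IGF2R, the receptor substrates IRS1 and IRS2, and the binding proteins IGFBP1, IGFBP2, IGFBP3 and IGFBP4. They were taken by gene symbol from a fixed list of IGF and insulin signalling genes, which was proposed with earlier results of these data known, and all 10 are among the 29153 genes listed. RNA sequencing was performed in HepG2, an established liver cancer cell line, after 72 h with a lentivirus carrying either a control hairpin (sh-NC, genotype given as control, 3 libraries, the control libraries below) or a hairpin against the long non-coding RNA LINC01977 (sh-LINC01977, genotype given as LINC01977 knockdown, 3 libraries, the knockdown libraries below). Both groups were therefore infected HepG2 cells without another allele or agent in the labels, infected cells were selected with puromycin according to the methods of the study, and 1 hairpin (sh3 in the labels) stands for the knockdown. The labels do not say whether the 3 libraries of a group came from separate cultures, so p-values measure only the spread between these libraries, which may be technical.

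IGF signalling starts when IGF1, IGF2 or insulin binds the tyrosine kinase receptors IGF1R and INSR, which pass the signal through the docking proteins IRS1 and IRS2 to the PI3K-AKT and RAS-MAPK cascades. IGF2R, the cation-independent mannose 6-phosphate receptor, takes up IGF2 and delivers it for degradation without a kinase signal. The IGF-binding proteins are secreted, hold IGFs outside the cell and are cleaved by proteases, and the liver is a main source of circulating IGFs and of several of these proteins.

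The study lists the following hairpin inserts, without saying which of its hairpins the label sh3 refers to. The second sequence is therefore the listed LINC01977 hairpin, and its identity with sh3 was not established.
LINC01977 shRNA-NC: TTCTCCGAACGTGTCACGT
LINC01977 shRNA: GCATTCGTCTTCCCTGGATTT
The targeted gene itself was close to undetected. LINC01977 (chromosome 17, 79823452 to 79827704) had counts of 4, 0 and 16 in the control libraries and 0, 0 and 4 in the knockdown libraries. The groups overlapped, and a reduction of LINC01977 was not detectable at this depth (log2 fold change -2.12, SE 1.96; edgeR adjusted p = 0.580 in the fit without a filter). The study reports that it checked LINC01977 knockdown in its stable HepG2 cells by quantitative PCR, without tying that check to these libraries. Within the sequencing data, directions below therefore rest on the labels of the libraries.

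The promoters of IGFBP3 and IGFBP4 are shown because these genes were the members that changed. The sequences cover the bases from 250 to 11 upstream of the RefSeq transcription start (GRCh38.p14), hold no exon in the gene annotation GENCODE 29, and have the letters TATAAA or TATATA in capitals.
IGFBP3, chr7:45921283-45921522, minus strand: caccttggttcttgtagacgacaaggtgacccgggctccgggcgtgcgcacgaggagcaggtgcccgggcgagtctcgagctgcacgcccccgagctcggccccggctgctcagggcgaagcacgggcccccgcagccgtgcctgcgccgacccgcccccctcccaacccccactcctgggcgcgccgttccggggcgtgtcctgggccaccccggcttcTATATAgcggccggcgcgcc
IGFBP4, chr17:40443200-40443439, plus strand: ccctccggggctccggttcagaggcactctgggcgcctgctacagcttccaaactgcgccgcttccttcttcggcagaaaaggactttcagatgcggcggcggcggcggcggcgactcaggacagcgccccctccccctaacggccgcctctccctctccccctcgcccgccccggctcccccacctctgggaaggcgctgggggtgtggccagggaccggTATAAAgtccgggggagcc
The IGFBP3 window lies within the gene's interval in the deposited table, which reaches further upstream than the RefSeq start, and the IGFBP4 window lies before the interval of its gene. The capital letters begin 30 bases upstream of the start in IGFBP3 and 29 bases upstream in IGFBP4. Windows of this length were found in RefSeq for 8 of the 10 members, 10 windows in all, with no entry for IGF2 and IGFBP1, and TATAAA or TATATA, searched on both strands, occurred in none of the other 8 windows. Of all 35116 windows of the same length, 12.6% held one of these words. The windows of the receptors and substrates (IGF1R, IGF2R, INSR, IRS1 and IRS2) were between 77.1% and 80.8% GC and held 2 to 6 copies of the letters GGGCGG, the core of the Sp1-type GC box, which occurred in 41.4% of all windows. IGFBP3 and IGFBP4 held 1 copy each. The letters CACGTG (E-box, 6.0% of all windows) occurred 3 times in the IGF2R window and in no other member's window. Neither GTGGGAA, the core read by the Notch effector RBPJ (5.2% of all windows), nor TGTTTAC, a FOXO site (2.9%), was found in any member's window. IGFBP6, a binding protein outside the members that was also called higher (below), had a window without TATAAA or TATATA. That window held 1 copy of GGGCGG and 1 of TGTTTAC.

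After knockdown, IGFBP4 and IGFBP3 rose and no other member passed the test. Of the 10 members, 9 had a mean FPKM (fragments normalised for transcript length and library depth) of at least 0.5 over the 6 libraries and entered edgeR's quasi-likelihood test, and IRS2 did not. Calls were made at a Benjamini-Hochberg adjusted p under 0.05 over 13452 genes. Higher calls were made for 2 members, where 7.05% of all tested genes were called higher. Lower calls were made for 0 members by edgeR, against 8.07% of all tested genes. INSR was the 1 member lower at an unadjusted p under 0.05. DESeq2 called it lower, as it did 1485 of all 13452 genes. With edgeR, 15.1% of tested genes were called in either direction, 948 higher and 1085 lower. Scaling by library totals moved that split to 1455 higher and 768 lower, and limma on log2(FPKM + 0.1) to 1269 and 729, while both members stayed called higher under each. Both also passed the study's thresholds of a fold change of at least 2 and P of at most 0.05, which 1.55% of tested genes passed upward. The groups did not overlap in CPM (counts scaled to library size with TMM factors) for IGFBP4, IGFBP3 and IGF2R, which were higher, as were 18.8% of tested genes, and for INSR, which was lower, as were 18.3%. The other 5 tested members overlapped. The median log2 fold change of the 9 tested members was 0.0155, with 6 above and 3 below 0, and that of all tested genes was -0.001.

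**Figure D1:**
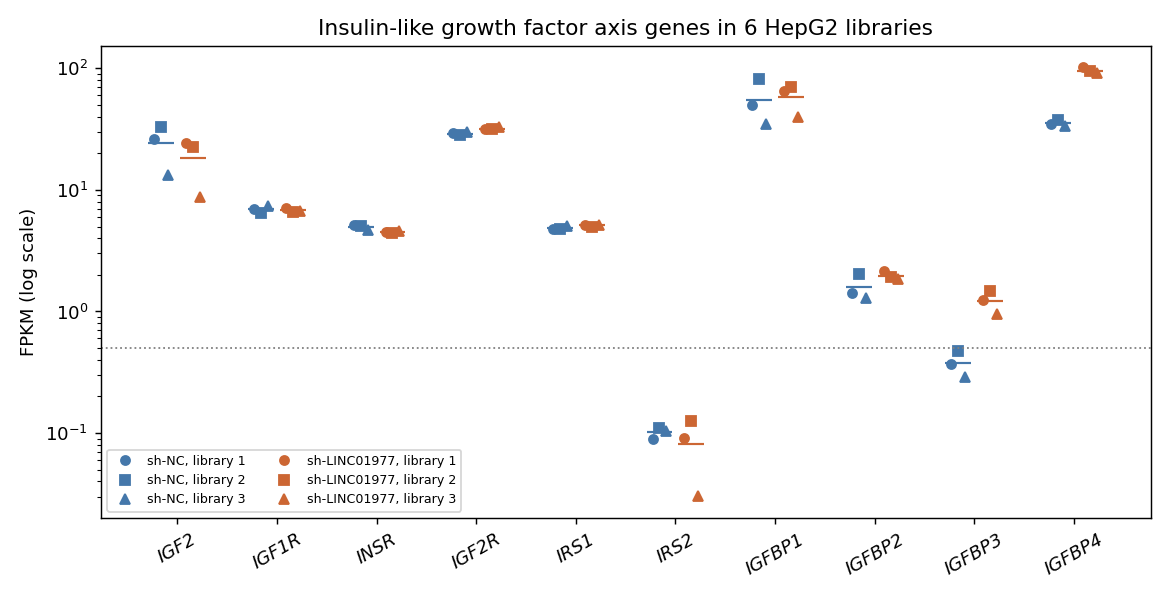
FPKM (log scale) of the 10 genes in each library, blue for sh-NC and orange for sh-LINC01977, with a symbol for each library number, a short line at the group mean and a dotted line at the filter of 0.5. IGFBP4 and IGFBP3 are separated upward in sh-LINC01977 libraries, and the triangles of the third library are lowest for IGF2 and IGFBP1 in both groups.

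Per transcript length, the most abundant member in sh-NC cells was IGFBP1 with 55.3 ± 23.5 FPKM (SD, n = 3), followed by IGFBP4 (35.5 ± 2.18), IGF2R (29.1 ± 0.831) and IGF2 (24.1 ± 9.997). The ranges of IGFBP1 and IGFBP4 overlapped, although IGFBP1 was the higher of them within each control library. The ranges of IGF2R and IGF2 also overlapped. IGF2 was the higher in the second control library, so that order does not exceed the spread between libraries. The tyrosine kinase receptors and IRS1 formed the next tier, with 6.90 ± 0.430 FPKM for IGF1R, 4.95 ± 0.254 for INSR and 4.86 ± 0.186 for IRS1, the last 2 overlapping. IGFBP2 (1.58 ± 0.392), IGFBP3 (0.378 ± 0.0949) and IRS2 (0.101 ± 0.0107) were lowest. In sh-LINC01977 cells, IGFBP4 stood first with 96.0 ± 5.34 FPKM and did not overlap IGFBP1 (58.3 ± 15.9), and IRS1 (5.10 ± 0.130) lay above INSR (4.51 ± 0.117) without overlap.

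IGF2, the fetal growth factor that many liver tumours express again, did not pass the test and was among the least reproducible genes. Its level was 210, 258 and 104 CPM in the control libraries and 183, 171 and 64.9 CPM in the knockdown libraries. The third library was the lowest of each group, the groups overlapped, and the highest library exceeded the lowest by 2.49-fold in control and 2.83-fold in knockdown libraries. The log2 fold change was -0.45 (SE 0.459, 95% interval -1.54 to 0.65; edgeR adjusted p = 0.559), and the interval holds both a fall and a rise. The within-group SD of its log2 CPM (0.768) lay at the 96.1th percentile of all tested genes, whereas depth was ample, with at least 3340 counts in each library. IGF2 (chromosome 11, 2129112 to 2141238, minus strand) shares its interval with other listed genes, but these took few counts. Its antisense transcript IGF2-AS had 48, 72 and 12 counts in control and 60, 37 and 31 in knockdown libraries, and the insulin read-through INS-IGF2 had at most 4. Counting by strand is not stated in the sources used here, so reads from the opposite strands of this locus cannot be told apart.

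Among the receptors, IGF2R and IGF1R differed little between groups, and INSR was slightly lower without passing the adjusted test. INSR, the insulin receptor (chromosome 19, 7112255 to 7294034), measured 68.4, 66.2 and 60.9 CPM in control libraries and 57.0, 56.0 and 57.3 CPM in knockdown libraries. Every knockdown library lay below every control library, a 1.15-fold decrease (log2 fold change -0.20, SE 0.061, 95% interval -0.34 to -0.05; edgeR unadjusted p = 0.0150, adjusted p = 0.0767). DESeq2 placed the same difference under the threshold (log2 fold change -0.20, adjusted p = 0.0453), where it called 1485 genes lower against 1085 by edgeR. Over 15 alternative settings the adjusted p ranged from 0.0453 to 0.240. IGF2R (chromosome 6, 159969099 to 160113507) measured 556, 526 and 555 CPM in control libraries and 568, 573 and 577 CPM in knockdown libraries. Its knockdown libraries were all above the controls by a small margin (log2 fold change 0.07, SE 0.037, 95% interval -0.02 to 0.16; edgeR adjusted p = 0.263). IGF1R (chromosome 15, 98648971 to 98964530) measured 120, 109 and 123 CPM against 117, 109 and 108 CPM, with overlapping groups and a log2 fold change of -0.08 (SE 0.064, 95% interval -0.24 to 0.07; edgeR adjusted p = 0.427).

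Ratios of receptors within a library do not depend on the scaling between libraries. The INSR to IGF1R ratio of FPKM was 0.739, 0.783 and 0.637 in control libraries and 0.632, 0.667 and 0.689 in knockdown libraries, and the groups overlapped (exact two-sided permutation test, p = 0.3). The IGF2R to IGF1R ratio was 4.22, 4.37 and 4.08 in control libraries and 4.42, 4.79 and 4.87 in knockdown libraries, a difference of 0.15 in log2 without overlap (exact two-sided permutation test, p = 0.1; adjusted over 5 ratios, p = 0.125). With 3 libraries against 3, that test cannot give a p under 0.1.

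Among the receptor substrates, IRS1 differed by less than the spread between libraries, and IRS2 was low. IRS1 (chromosome 2, 226731317 to 226799759) measured 60.4, 59.2 and 63.1 CPM in control libraries and 62.1, 60.3 and 61.2 CPM in knockdown libraries. The groups overlapped, with a log2 fold change of 0.01 (SE 0.052, 95% interval -0.12 to 0.13; edgeR adjusted p = 0.951), whose sign turned in 3 of 15 alternatives. IRS2 (chromosome 13, 109752698 to 109786568), the substrate that fasting raises in liver, had counts of 51, 56 and 63 in control libraries and 49, 76 and 15 in knockdown libraries. Read from the unfiltered fit, it gave a log2 fold change of -0.37 (SE 0.489; edgeR adjusted p = 0.714) which was set by the third sh-LINC01977 library, since without that library it was 0.02.

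**Figure D2:**
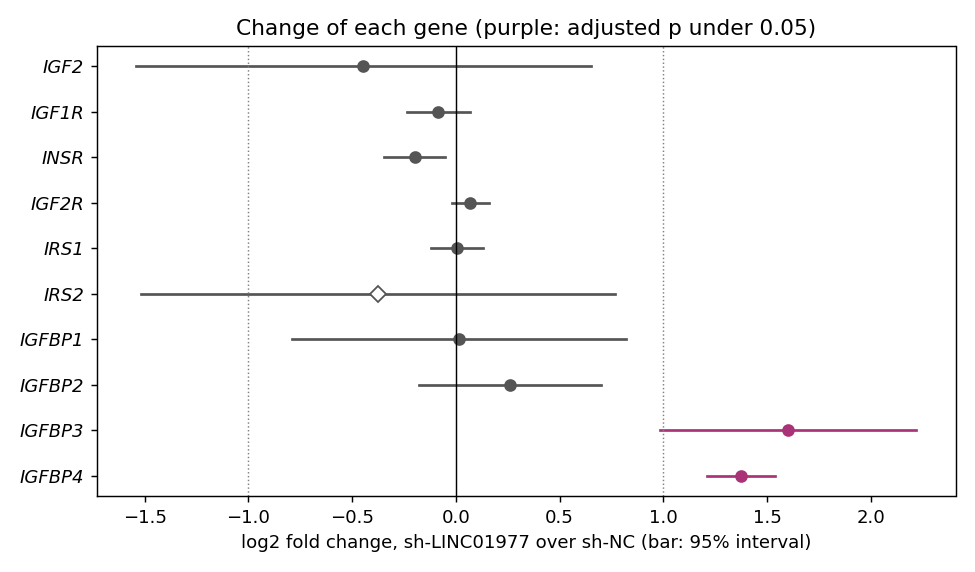
Log2 fold change of each gene in sh-LINC01977 over sh-NC libraries, with 95% intervals from edgeR, purple where the adjusted p was under 0.05, and an open diamond for IRS2, which was read from the fit of all listed genes. Dotted lines mark a fold change of 2, and IGFBP3 (1.60) and IGFBP4 (1.37) lie beyond the right one, while the intervals of IGF2 and IGFBP1 are wide around 0.

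IGFBP4 showed the clearest difference of the members. This protein binds IGF2 and IGF1 and releases them when the protease PAPPA cuts it. IGFBP4 (ENSG00000141753, chromosome 17, 40443461 to 40457731, plus strand) measured 98.4, 104 and 92.2 CPM in control libraries and 270, 255 and 239 CPM in knockdown libraries. Every knockdown library lay far above every control library relative to the spread within groups (98.3 ± 6.04 against 254 ± 15.7 CPM, SD, n = 3). The rise was 2.59-fold (log2 fold change 1.37, SE 0.068, 95% interval 1.21 to 1.54; edgeR adjusted p = 0.000397). It kept an adjusted p under 0.05 in all 15 alternatives, with log2 fold changes from 1.33 to 1.44.

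IGFBP3, the main carrier of IGFs in serum, rose from a low level. IGFBP3 (ENSG00000146674, chromosome 7, 45912245 to 45921874, minus strand) had counts of 121, 137 and 98 in control libraries and 376, 501 and 265 in knockdown libraries, or 2.22, 2.78 and 1.66 CPM against 6.83, 8.23 and 5.15 CPM. The groups did not overlap, and the third library was the lowest in each. The rise was 3.04-fold (log2 fold change 1.60, SE 0.258, 95% interval 0.99 to 2.22; edgeR adjusted p = 0.00953). Its sh-NC mean of 0.378 FPKM was below the filter of 0.5, so it entered the test through the sh-LINC01977 libraries, where its mean was 1.21 ± 0.259 FPKM. In the fit without a filter the log2 fold change was 1.59 (edgeR adjusted p = 0.0129), and a filter at a mean of 1 FPKM removed the gene.

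IGFBP1 and IGFBP2 did not pass the test. IGFBP1 (chromosome 7, 45888357 to 45893668, plus strand), an insulin-repressed secreted protein of hepatocytes, lies 18576 bp from IGFBP3 on the opposite strand. It measured 105, 168 and 72.5 CPM in control libraries and 129, 141 and 78.8 CPM in knockdown libraries. The third library was again the lowest of each group, the groups overlapped, and the log2 fold change was 0.02 (SE 0.337, 95% interval -0.79 to 0.82; edgeR adjusted p = 0.983). The spread of IGFBP1 within groups lay at the 92.2th percentile of all tested genes, and its interval spans changes in both directions. IGFBP2 (chromosome 2, 216632828 to 216664436), which fetal liver and many tumours express, measured 8.70, 12.1 and 7.66 CPM in control libraries and 12.5, 11.1 and 10.5 CPM in knockdown libraries. The groups overlapped through the second sh-NC library (log2 fold change 0.26, SE 0.185, 95% interval -0.18 to 0.70; edgeR adjusted p = 0.386).

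The make-up of the summed IGFBP1 to IGFBP4 transcripts differed between the groups without overlap. IGFBP6, at 4.15 FPKM in control and 12.97 FPKM in knockdown libraries, is not part of this sum. IGFBP4 made up 40.5%, 31.1% and 47.8% of the summed FPKM of IGFBP1 to IGFBP4 in the control libraries and 59.8%, 56.5% and 68.0% in the knockdown libraries. IGFBP1 made up 57.4%, 66.8% and 50.0% in control and 38.2%, 41.5% and 29.9% in knockdown libraries. The leading transcript was IGFBP1 in each control library and IGFBP4 in each knockdown library, with no overlap between groups for either. IGFBP2 went from 1.71% ± 0.0992 to 1.26% ± 0.120 and IGFBP3 from 0.410% ± 0.0187 to 0.766% ± 0.0919 (SD, n = 3), also without overlap. The lower shares of IGFBP1 and IGFBP2 came without a detected fall in their levels. Their log2 fold changes were 0.02 (95% interval -0.79 to 0.82) and 0.26 (-0.18 to 0.70) and did not pass the test. These intervals do not exclude a fall. Each of the 4 shares gave p = 0.1 in the exact two-sided permutation test, the smallest p that 3 libraries against 3 allow (p = 0.1 after Benjamini-Hochberg adjustment), and since shares sum to 100% they are not independent. The summed FPKM of the 4 genes was 86.6, 121 and 70.2 in control libraries and 170, 168 and 134 in knockdown libraries, with no overlap (exact two-sided permutation test, p = 0.1).

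**Figure D3:**
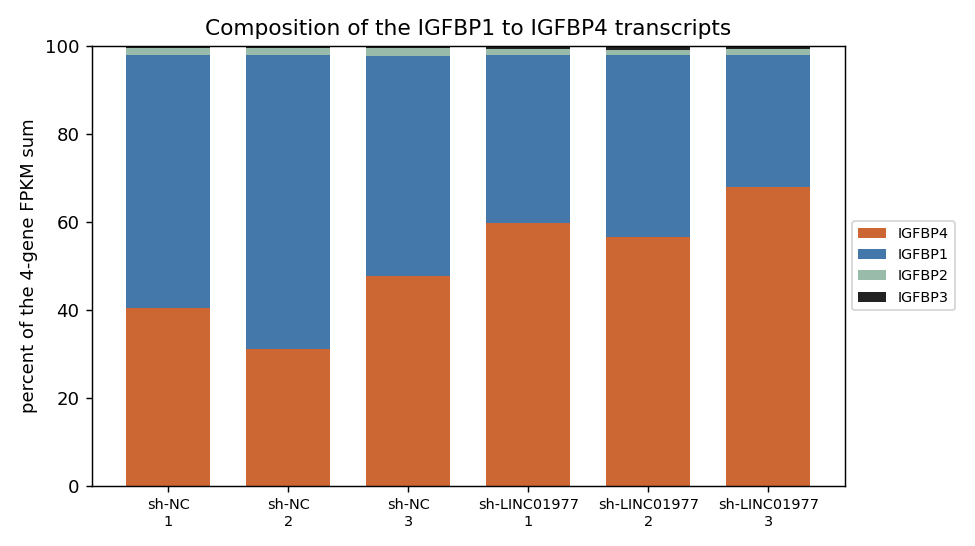
Share of each binding protein in the summed FPKM of IGFBP1 to IGFBP4, in percent, for each of the 6 libraries. The IGFBP4 part is between 31.1% and 47.8% in sh-NC libraries and between 56.5% and 68.0% in sh-LINC01977 libraries, and IGFBP3 is barely visible.

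Ratios between members, chosen after their values were seen, show how the third libraries stood. The IGFBP3 to IGFBP1 ratio of FPKM was 0.00747, 0.00586 and 0.00816 in control libraries and 0.0190, 0.0210 and 0.0235 in knockdown libraries. Within each group this ratio varied less than IGFBP3 or IGFBP1 alone. The IGFBP4 to IGF2 ratio was 1.33, 1.15 and 2.53 in control libraries and 4.19, 4.23 and 10.5 in knockdown libraries, with no overlap, and the third library was the highest of each group (exact two-sided permutation test, p = 0.1; adjusted over 5 ratios, p = 0.125).

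Other genes of the pathway were taken from lists by function, and their counts of calls stand beside 7.05% of all tested genes called higher and 8.07% called lower. Of 12 listed ligands, binding proteins and their regulators, 3 passed the filter and 1 of them rose. This gene was IGFBP6, a binding protein that prefers IGF2, with counts of 366, 338 and 387 in control libraries and 996, 1358 and 1012 in knockdown libraries. The groups stood apart (log2 fold change 1.58, SE 0.107; edgeR adjusted p = 0.000692), at 4.15 against 12.97 FPKM. IGF1 was not detectable at this depth, with counts of 0, 4 and 0 against 4, 0 and 0. At the IGF2 locus, 4 of 12 listed transcripts, IGF2 included, passed the filter and 0 were called by edgeR, with PHLDA2 the 1 gene at an unadjusted p under 0.05 (0.0352). H19, the imprinted neighbour of IGF2, had 20, 18 and 27 counts in control and 58, 9 and 24 in knockdown libraries, which overlapped. The fit of all 29153 listed genes has another background, with 711 genes called higher and 852 lower. In that fit, 1 further transcript of this list fell and 1 rose, each named after its values were seen. KCNQ1OT1, the antisense transcript of the neighbouring imprinted domain, fell by 0.61 in log2 (SE 0.113; edgeR adjusted p = 0.0240), and CD81 rose from 4, 4 and 5 counts to 25, 46 and 41 (edgeR adjusted p = 0.0138).

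The IGF2 mRNA-binding proteins IGF2BP1, IGF2BP2 and IGF2BP3, which bind IGF2 and many other transcripts, did not pass the test, and 1 of them (IGF2BP1) had an unadjusted p under 0.05. IGF2BP1 measured 424, 424 and 421 CPM in control and 445, 459 and 449 CPM in knockdown libraries (log2 fold change 0.09, SE 0.033; edgeR adjusted p = 0.117), and with library totals in place of TMM it passed (0.16, edgeR adjusted p = 0.0252). IGF2BP2 had a log2 fold change of -0.02 (95% interval -0.14 to 0.11; edgeR adjusted p = 0.872). IGF2BP3 spread from 63.3 to 114 CPM within control and from 59.2 to 116 CPM within knockdown libraries, with overlapping groups (edgeR adjusted p = 0.959). For IGF2BP2 and IGF2BP3 the sign was positive with library totals, at 0.05 and 0.03.

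Downstream of the receptors, 1 gene was called in each of 3 lists, where 7.05% of all tested genes were called higher and 8.07% lower. In the first, 1 of 11 tested adaptors and negative regulators rose, namely SHC1, the adaptor that links receptors to RAS, from 140 ± 1.95 to 184 ± 5.35 CPM (log2 fold change 0.40, SE 0.043; edgeR adjusted p = 0.00248). Below the filter, the cytokine and growth factor feedback genes SOCS2 (log2 fold change 1.01, edgeR adjusted p = 0.0239) and SOCS3 (1.97, adjusted p = 0.0396), named after their values were seen, rose in the fit of all listed genes. That fit called 711 of 29153 genes higher. Of 24 tested PI3K, AKT and mTOR components, 1 rose, the ribosomal S6 kinase gene RPS6KB1 (log2 fold change 0.49, SE 0.115; edgeR adjusted p = 0.0345). Of 12 RAS and MAPK components, 1 fell, MAPK3, which encodes the kinase ERK1 (log2 fold change -0.25, SE 0.064; edgeR adjusted p = 0.0475), and with library totals it did not pass (edgeR adjusted p = 0.104). With library totals MAP2K1 of the same list passed as higher (0.23, edgeR adjusted p = 0.0398). So did PTPN1 of the adaptors and negative regulators (0.20, edgeR adjusted p = 0.0351). Both are named after their values were seen. The median log2 fold changes of these lists were -0.04, 0.03 and -0.06, close to that of all tested genes.

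Liver genes known to respond to insulin or FOXO moved in both directions. Of 11 tested, a list that also holds IGFBP1 and IRS2, 2 rose and 3 fell, with a median log2 fold change of -0.12, where 7.05% of all tested genes were called higher, 8.07% lower and 15.1% in either direction. TXNIP, an inhibitor of glucose uptake, rose from 79.3, 86.8 and 76.6 CPM to 140, 133 and 125 CPM (log2 fold change 0.71, SE 0.070; edgeR adjusted p = 0.00181), and TRIB1 rose by 0.41 (adjusted p = 0.00434). PPARGC1A, the coactivator of gluconeogenic genes, fell from 16.2, 18.5 and 17.3 CPM to 8.05, 9.68 and 7.96 CPM (log2 fold change -1.02, SE 0.115; edgeR adjusted p = 0.00287). The lipid genes PNPLA3 (-0.45, edgeR adjusted p = 0.0292) and SCD (-0.25, adjusted p = 0.0149) fell as well. SESN3, a FOXO target below the filter and named after its values were seen, rose in the fit of all listed genes (1.49, edgeR adjusted p = 0.0151). That fit called 711 of 29153 genes higher and 852 lower. G6PC and PCK1, also below the filter and named after their values were seen, were lower without overlap. Their log2 fold changes were -3.35 and -0.69, and neither passed in that fit (edgeR adjusted p = 0.101 and 0.232).

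**Figure D4:**
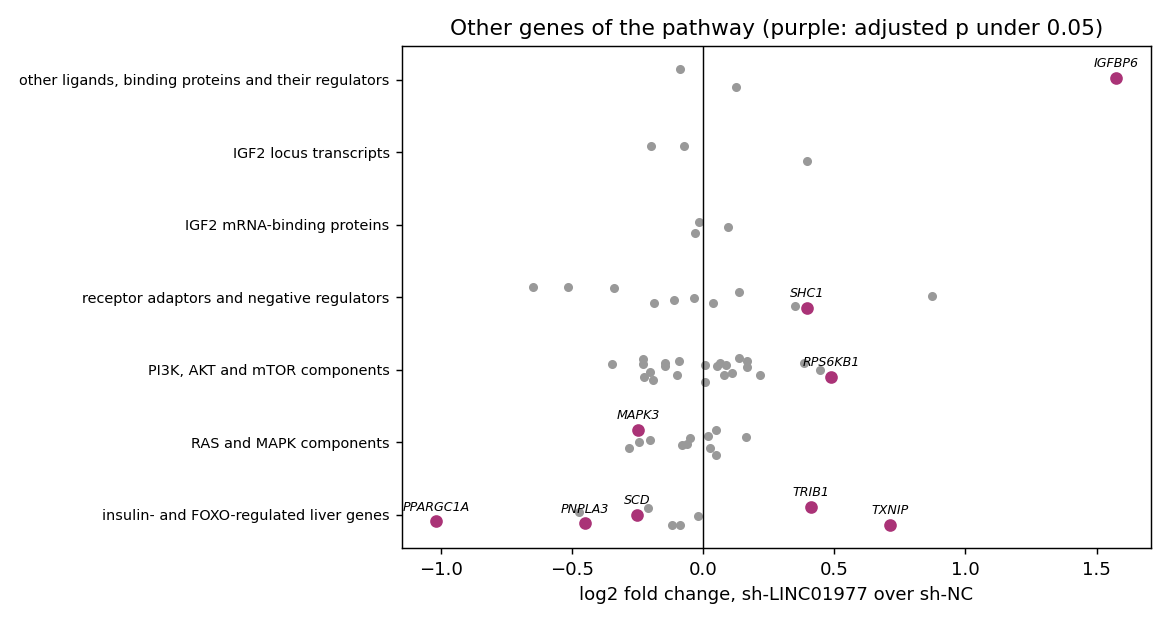
Log2 fold change of the tested genes of 7 pathway lists other than the 10 members, with points spread vertically within a list for legibility, purple and named where the edgeR adjusted p was under 0.05. Most points lie within 0.5 of 0, and IGFBP6 (1.58) and PPARGC1A (-1.02) lie farthest to the right and left.

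The libraries held between 49929024 and 60441515 counts. Cell markers moved beside these results, and their part in them was not tested. All 12 HepG2 markers passed the filter, of which 7 fell and 1 rose (APOA2, log2 fold change 0.42). Of all tested genes, 7.05% were called higher and 8.07% lower, and these shares apply to each marker list here. The 4 largest decreases among those called were FGB (-1.10), ALB (-1.09), APOA1 (-0.74) and TF (-0.66), each with an edgeR adjusted p under 0.05. The summed level of the 12 markers was 6085 to 6473 FPKM in control and 5248 to 5357 FPKM in knockdown libraries. The 6 of 10 mesenchymal markers in the table summed to 3.04 to 4.21 FPKM in control and 5.51 to 7.67 FPKM in knockdown libraries. Of the 2 tested, PDGFRB rose (log2 fold change 1.47, edgeR adjusted p = 0.00620), and COL1A1 had a log2 fold change of 0.73 (edgeR adjusted p = 0.0504) and passed with library totals (adjusted p = 0.0346). VIM and COL3A1, below the filter, are named after their values were seen. VIM went the other way, with 48, 83 and 64 counts in control libraries and 38, 30 and 4 in knockdown libraries, which did not overlap (log2 fold change -1.53, edgeR adjusted p = 0.294). COL3A1 was at 0 counts in 5 libraries. The 8 of 10 leukocyte and endothelial markers in the table summed to 626 to 634 FPKM and 544 to 559 FPKM, nearly all of it LYZ, which fell (log2 fold change -0.27, edgeR adjusted p = 0.00537), with PTPRC at no more than 4 counts in any library.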

How the data were processed

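TRIzol-extracted RNA of 3 sh-NC and 3 sh-LINC01977 HepG2 libraries was sequenced by Illumina HiSeq. The deposited counts are raw whole numbers for each gene, and the deposited FPKM values are normalized to transcript length and library total. The submitters' processing notes name hg38, bcl2fastq 2.0, HISAT2, StringTie, DESeq2 and limma, without roles. The 13452 genes whose mean FPKM reached 0.5 were tested on the counts with edgeR 4.0.16 (TMM, quasi-likelihood test, Benjamini-Hochberg adjustment) in R 4.3.3. CPM are counts scaled to library size times the TMM factor. The design allowed for counts or FPKM, and counts were used. Genes below the filter were read from a fit of all 29153 genes. Shares and ratios of FPKM were compared by exact two-sided permutation tests. Alternatives were other scalings, filters, DESeq2 1.42.0, limma 3.58.1, a replicate block and leaving out each library. The members, lists and tests were chosen with earlier results of these data known. All members were named, with the genes of each other list that passed the adjusted threshold, at most 4 a direction by fold change, and IGF1, INS-IGF2, IGF2-AS, H19, IGF2BP1, IGF2BP2, IGF2BP3 and LINC01977. INS and INSRR are not analysed here. Promoter windows were read from RefSeq (GRCh38.p14) by symbol, and the hairpins from the study's supplement. At these depths counting error is small for the members except IRS2, and the spread between libraries sets the precision.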

Additional observations from a re-analysis of the deposited data

How the results depend on the processing

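The rises of IGFBP4 and IGFBP3 kept their direction and their adjusted p under 0.05 in all 15 and 14 alternatives that gave a value, and no member other than these and INSR passed under any. The number of members called higher was 1 when the filter was raised to 1 FPKM, which removes IGFBP3. The number called lower was 1 with DESeq2 (INSR, log2 fold change -0.20), which called 1485 of 13452 genes lower, against 1085 in the main fit. The number past the fold change of 2 was 1 with limma on log2(FPKM + 1), where the pseudocount shrinks IGFBP3 to 0.68, and 1 with the filter at 1 FPKM. The sign of IRS1 turned without the filter (-0.0067), and with 1 library left out it ranged from -0.013 to 0.035. With 1 library left out, IGFBP1 ranged from -0.23 (without the third sh-NC library) to 0.39 (without the second), turning in 4 of 6 cases, IRS2 from -0.84 to 0.016, and IGF2 from -0.74 to -0.10. None of these passed the test. Leaving out a library reduced the calls over all genes from 2033 to between 1176 and 1398, with fewer samples in the fit. Library totals in place of TMM moved the median of all genes to 0.065. The shares and receptor ratios kept their direction with CPM in place of FPKM and with each library left out.

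Over all tested genes, the deviations of same-numbered libraries had correlations of -0.029, 0.017 and 0.055. Such a correlation cannot show whether the replicate numbers pair the libraries for single genes. With the replicate block, 1390 genes in place of 2033 were called, and IGFBP4 (1.37) and IGFBP3 (1.60) stayed called. IGF2 had a log2 fold change of -0.49 with the block (edgeR unadjusted p = 0.00731, adjusted p = 0.0598). The SE with and without the block was 0.1065 and 0.459 for IGF2, 0.118 and 0.337 for IGFBP1, and 0.143 and 0.258 for IGFBP3. For INSR, IRS1 and IRS2 the SE was slightly larger with the block. The block changed no member's call.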
